A study of Homo sapiens with 10 samples.

Results

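The last 410 positions of human 28S rRNA, numbered 4660 to 5069 from 0 at the first base, lie downstream of every 28S site that the study lists as a known 2′-O-methylation. They make up 5.91% of the 6939 positions of 18S and 28S rRNA for which fragment 3′-ends were counted. The last known site is at position 4636, which is 24 nt before the stretch and 433 nt before the end of the RNA. The longest gap between neighbouring known 28S sites elsewhere is 916 nt, so a stretch of this length without a listed site is not the longest in the molecule. Members were chosen by position alone, and all 410 had a count in at least 1 library of each experiment.

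All libraries came from total RNA of PA1 cells, a line derived from a human ovarian teratoma, and the labels name no other treatment of the cells. RNA was cut at random with the nuclease Benzonase, and fragment 3′-ends were ligated to a linker and sequenced. Control libraries held fragmented RNA that was not oxidized. Oxidized libraries went through periodate oxidation, β-elimination that removes the terminal nucleotide, removal of phosphates and a second periodate oxidation before ligation. The second oxidation leaves ligatable ends mainly where the terminal ribose carries a 2′-O-methyl group. The controls skipped all of these steps. Values given as after oxidation therefore reflect the whole treatment and not oxidation alone. One experiment was sequenced on a NextSeq, and its control and oxidized groups had 3 libraries each, of which replicates 1 and 2 came from passage 6 and replicate 3 from passage 4. The other was sequenced on a MiSeq, with 2 control and 2 oxidized libraries, all from passage 7. The paper describes the MiSeq experiment as a pilot with little starting RNA and few reads, and judges it too weak to call sites accurately. The protocol speaks of technical replicates, and beyond the passage no label tells cultures apart, so p-values measure the spread between these libraries. rRNA counts hold no marker of the cell line, and its identity was not checked here.

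2′-O-methylation of rRNA is placed by fibrillarin, guided to each site by a box C/D snoRNA that pairs with the RNA around it. The modified nucleotide cannot be oxidized by periodate, because the reaction needs a free 2′- and 3′-hydroxyl side by side. The 3′ part of 28S rRNA forms domain VI of the large subunit, with a GC-rich expansion segment that is far longer in mammals than in yeast. The natural 3′-end of the mature RNA carries both hydroxyls, and so does any random cut at an unmethylated nucleotide after end repair. Ends in this stretch therefore show what oxidation leaves behind where no site is listed.

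The positions that stood out can be read in their sequence, taken from the hg19 (GRCh37) genome, plus strand of an unplaced contig, where the stretch spans chrUn:118008-118417. In each line the capital marks the position or positions described below. The first line holds the position with the most ends in 1 oxidized MiSeq library, the second that with the most in the oxidized NextSeq libraries, the third positions 4927 and 4938, the fourth position 5006, and the fifth the 3′-end of 28S with position 5068.

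Positions 4660 to 4690 (chrUn:118008-118038), T4672 in capitals: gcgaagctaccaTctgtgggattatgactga

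Positions 4722 to 4752 (chrUn:118070-118100), C4737 in capitals: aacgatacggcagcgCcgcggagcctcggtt

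Positions 4917 to 4947 (chrUn:118265-118295), C4927 and C4938 in capitals: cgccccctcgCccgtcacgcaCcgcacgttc

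Positions 4991 to 5021 (chrUn:118339-118369), A5006 in capitals: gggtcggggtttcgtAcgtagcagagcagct

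Positions 5040 to 5069 (chrUn:118388-118417), T5068 in capitals: gaaagtcagccctcgacacaagggtttgTc

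The stretch held 59 A, 151 C, 137 G and 63 U, which is 70.2% G or C against 65.8% over all positions. The gene annotation used here lists no gene on this contig, so each position is described by its place in 28S rRNA.

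The total count per library was 72458614 to 80964624 in the NextSeq controls and 12293410 to 13694386 in the oxidized NextSeq libraries. It was 30392418 and 44061905 in the MiSeq controls and 1353768 and 1568883 in the oxidized MiSeq libraries. Counts in the stretch rose in steps of 50. At least 99.7% of its counts lay in whole steps of 50 in every library, and 70.7% to 96.6% of its positions with counts held an exact multiple of 50. In the part of 28S that is present as 2 copies on the contig, positions 0 to 4482, this share was 5.06% to 47.2%. The stretch and the 177 positions just upstream, 4483 to 4659, are present as 1 copy. Whether a count stands for the same number of reads in both parts was not tested, and precision was judged on steps of 50. On that scale the stretch held 88479 to 117064 steps in the NextSeq controls, 483 to 541 in the oxidized NextSeq libraries, 57567 and 81257 in the MiSeq controls and 391 and 316 in the oxidized MiSeq libraries. The depth of the oxidized libraries thus limited what could be seen. A position at 0 allowed up to 0.554% to 0.621% of the stretch's counts in an oxidized NextSeq library, and up to 0.767% and 0.949% in the oxidized MiSeq libraries, when 3 steps (150 counts) are taken as the limit. The authors used random bases in the reads to collapse PCR duplicates before counting, and limits and intervals cover counting error only.

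Some libraries stood apart or were nearly alike. NextSeq control replicate 3 differed from the other controls in this stretch, with a chi-square of 174 and 180 times its degrees of freedom on steps of 50. Between control replicates 1 and 2 the value was 1.33 times. Replicate 3 is the only control from passage 4, so passage and library cannot be told apart here. No pair of oxidized NextSeq replicates differed in the stretch beyond sampling noise (chi-square p = 0.105 to 0.429 over 220 to 237 positions). Over all 3431 positions with counts, the chi-square between oxidized replicates 2 and 3 was 1.01 times its degrees of freedom on steps of 50. Between replicate 1 and these it was 2.58 and 2.52 times. Most of these positions lie outside the 1-copy part. In 18S only 11.3% to 13.2% of positions with counts held a multiple of 50 in these libraries. The size of sampling noise is therefore not known there, and these values cannot decide whether libraries differ beyond it. Replicates 2 and 3 are labelled with different passages. They were counted as 1 sample in each mean ± SD below, as a precaution, and the fit per position is given with them apart and together. The 2 oxidized MiSeq libraries also did not differ beyond sampling noise in the stretch (0.997 times). Over 3026 positions with counts the value was 1.002 times, with the same limit. No other oxidized MiSeq library is there to compare them with, so n = 2 may overstate their number, and the fit is given with them apart and together.

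Ends in the stretch were scarce after oxidation. The stretch took 7.40%, 7.23% and 5.86% of all counts in the NextSeq controls and 0.183%, 0.202% and 0.198% in the oxidized libraries. MiSeq shares were 9.22% and 9.47% in the controls and 1.25% and 1.17% after oxidation. The groups did not overlap in either experiment. The known sites moved the other way, from 0.359% to 0.732% of all counts in the NextSeq controls to 94.8% to 95.2% after oxidation, and from 0.173% in both MiSeq controls to 59.2% and 59.3%. Each library is a pool of fragments, so fewer ends in the stretch and more ends elsewhere cannot be told apart from such shares.

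Leaving the known sites out of the total gave a comparison with the rest of the background. The stretch holds 6.00% of the positions outside known sites. It took 7.43%, 7.26% and 5.90% of the counts outside known sites in the NextSeq controls and 3.78%, 3.87% and 3.97% in the oxidized libraries, or 6.86% ± 0.837 (SD, n = 3) against 3.85% ± 0.102 (SD, n = 2). The two-sided exact permutation test over the 6 libraries gave p = 0.1, the smallest p that 3 against 3 allows. The MiSeq controls gave 9.24% and 9.49% and the oxidized libraries 3.05% and 2.87% (exact permutation p = 0.333, the smallest that 2 against 2 allows). Both sets of groups lay apart without overlap, in the same direction. The NextSeq difference depended on the surroundings of known sites. When positions within 3 nt of a known site were also left out, the means were 7.92% in the controls and 7.17% after oxidation, 0.75 percentage points apart (exact permutation p = 0.4), and the MiSeq means stayed apart at 10.3% and 3.68%.

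Counts also rose in steps of 50 in the 1-copy part just upstream, at 79.1% to 100% of its positions with counts. Over the whole 1-copy part outside known sites, the stretch took 62.2%, 61.6% and 53.0% in the NextSeq controls and 39.3%, 41.3% and 41.5% after oxidation. In the MiSeq experiment it took 79.9% and 85.2% in the controls and 24.7% and 24.4% after oxidation. Per position, the stretch held 0.456 to 0.666 times the mean of the 166 upstream positions outside known sites in the NextSeq controls, and 0.262 to 0.287 times after oxidation. The MiSeq controls went above the upstream part, at 1.61 and 2.33 times, and the oxidized MiSeq libraries were at 0.133 and 0.131 times. The upstream part holds 11 known sites, and the share of its background that lies beside them was not separated here.

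**Figure D1:**
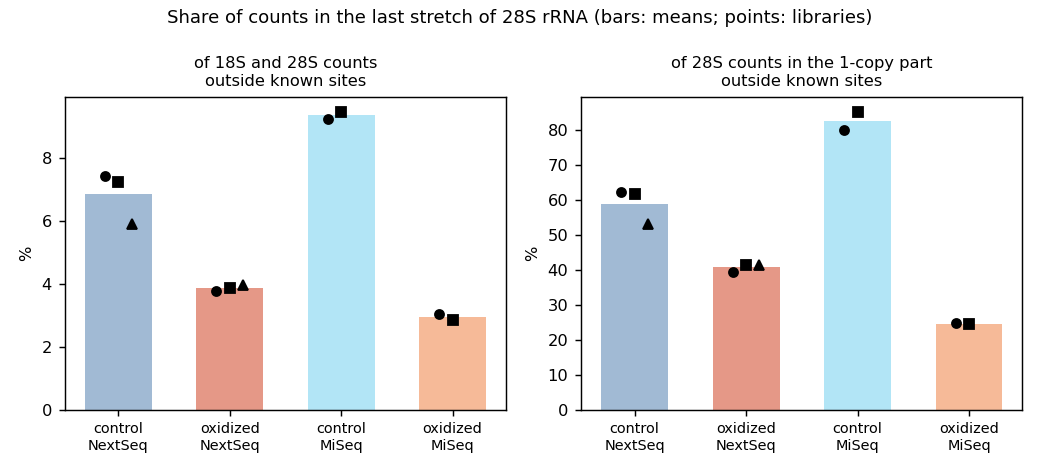
The y axis gives the share of counts in the last 410 positions of 28S in percent, of all 18S and 28S counts outside known sites (left) and of those in the 1-copy part of 28S (right), with bars for group means and points for libraries. In both panels and both experiments every oxidized library sits below every control, for example 3.78% to 3.97% against 5.90% to 7.43% in the left panel for NextSeq. The left panel includes parts where a count may stand for another number of reads.

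Ends were found almost everywhere in the controls and at fewer positions after oxidation. Of the 410 positions, 7, 4 and 2 were at 0 in the NextSeq controls and 223, 237 and 232 in the oxidized libraries. The MiSeq controls had 2 and 5 positions at 0, and the oxidized libraries 292 and 299. With 316 to 541 steps of 50 spread over 410 positions, many of these zeros are within what depth allows. The counts were also more concentrated after oxidation: the 10 highest positions held 26.4%, 26.6% and 12.9% of the stretch in the NextSeq controls and 42.3%, 46.4% and 44.6% in the oxidized libraries. The MiSeq values were 21.1% and 19.7% in the controls and 26.6% and 27.2% after oxidation.

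**Figure D2:**
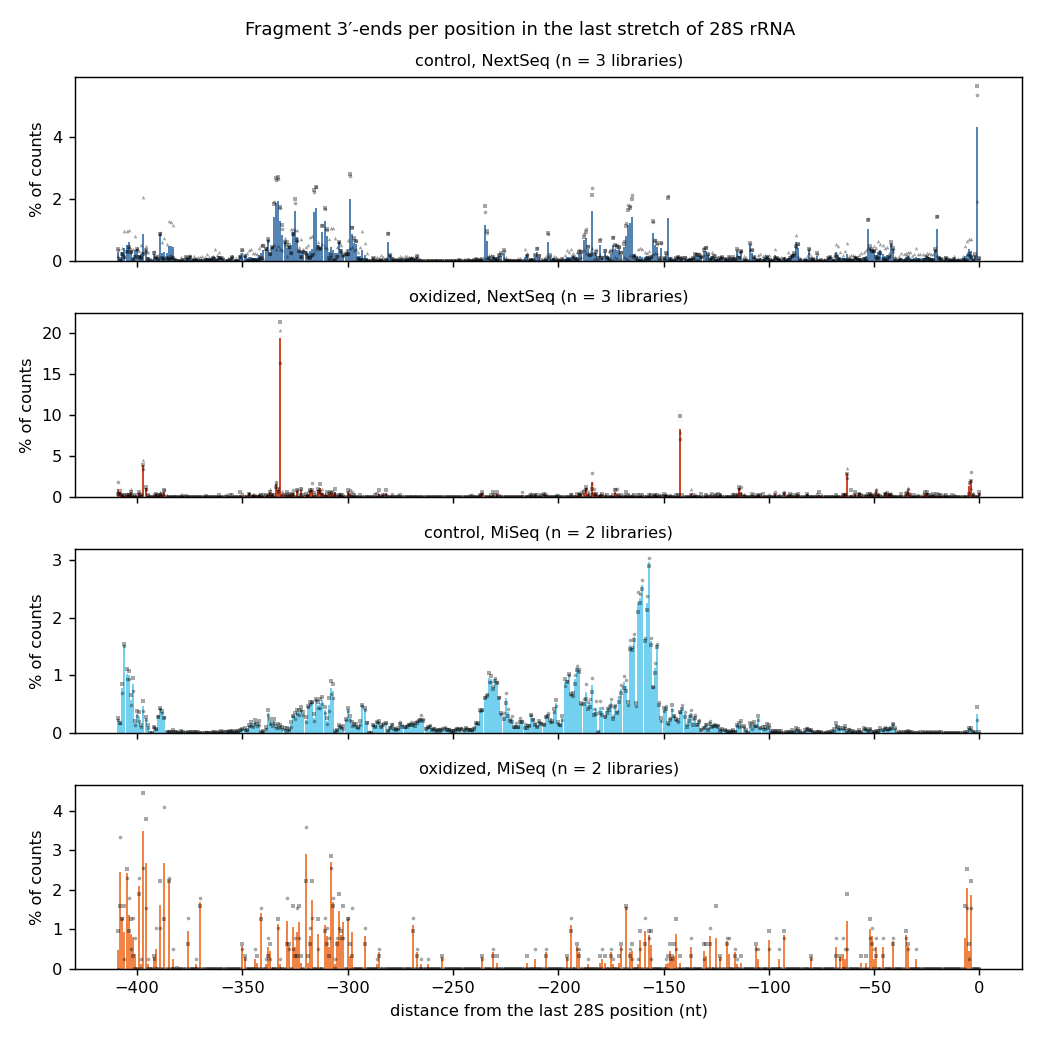
Each panel plots the percent of the stretch's counts at each position (y axis, own scale in each panel) against the distance from the last 28S position in nt (x axis), with lines for group means and points for libraries. Oxidized NextSeq libraries are led by spikes at −332 and −142, which are positions 4737 and 4927, and the MiSeq controls by a broad hump near −157, with the highest count at position 4912.

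In 10 equal bins of 41 positions, the groups differed in where ends lay. The second bin (positions 4701 to 4741) held 11.3% to 15.9% of the stretch's counts in the NextSeq controls and 23.4% to 28.1% after oxidation. The third bin (4742 to 4782) went the other way, from 21.9% to 22.3% in the controls to 11.8% to 12.5% (exact permutation p = 0.1 for both bins, the smallest allowed, and 0.333 when adjusted over the 10 bins compared). For MiSeq, bins 6 and 7 (positions 4865 to 4946) held 24.1% to 27.6% each in the controls, and 6.64% to 11.1% after oxidation. The first bin held 8.87% and 10.5% in the MiSeq controls and 28.8% and 31.0% after oxidation. The fourth bin (4783 to 4823) is 95.1% G or C and had few ends in all groups, at 1.48% to 5.02% of the stretch.

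**Figure D3:**
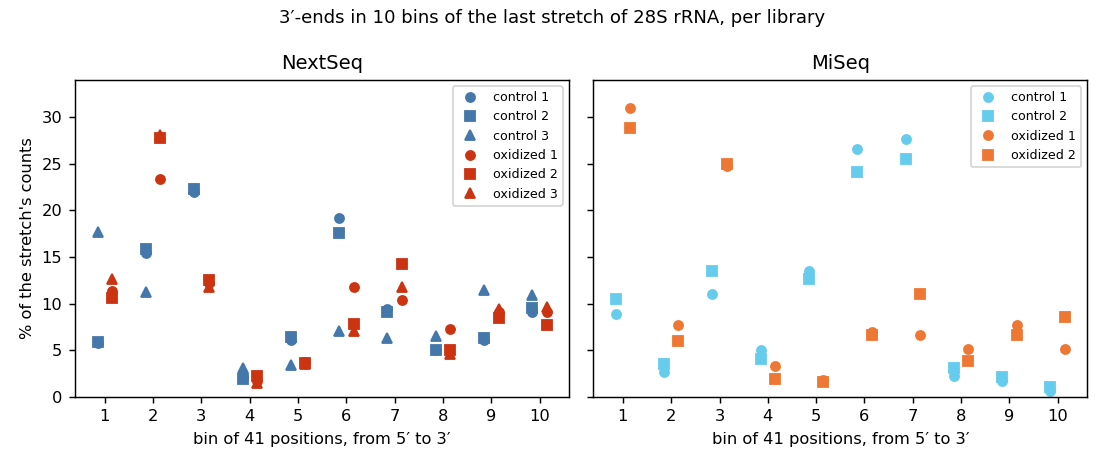
The y axis gives the percent of the stretch's counts in each of 10 bins of 41 positions (x axis, from 5′ to 3′), with 1 point per library. Oxidized and control points lie apart in bins 2 and 3 of the NextSeq panel, and the MiSeq controls stand highest in bins 6 and 7.

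Position 4927, a C in the GC-rich part, had 5150, 5000 and 1200 counts in the NextSeq controls and 1700, 2450 and 2150 in the oxidized libraries. The oxidized counts lay within the range of the controls only through control replicate 3, the control that stood apart. The whole stretch had 4424140 to 5853691 counts in the controls and 24168 to 27074 after oxidation. Library totals also differed, at 72458614 to 80964624 in the controls and 12293410 to 13694386 after oxidation, so raw counts are not on one scale. As a share of the stretch, it took 0.0960%, 0.0854% and 0.0271% in the controls and 7.03%, 9.85% and 7.94% after oxidation. The exact Clopper-Pearson 95% intervals, on steps of 50, were 4.92% to 9.70%, 7.40% to 12.9% and 5.81% to 10.6% in the 3 oxidized libraries, all far above the controls. Relative to the mean of the 10 positions on each side, it stood at 0.404, 0.371 and 0.299 times in the controls and at 97.1, 109 and 61.4 times after oxidation. Its neighbours 4926 and 4928 had 0 or 50 counts in each oxidized NextSeq library.

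In the fit across all positions, position 4927 had a log2 fold change of 5.44 (SE 1.04, adjusted p = 0.0359, edgeR, quasi-likelihood test, Benjamini-Hochberg adjustment over 6718 positions). The call held in 12 of 17 alternatives and was lost in 5. The adjusted p depended strongly on the method: DESeq2's Wald test on the deposited counts gave 5.3e-07 at a log2 fold change of 5.23. With oxidized replicates 2 and 3 taken as 1 sample, edgeR gave an adjusted p = 0.0563 at a log2 fold change of 5.53. On counts in steps of 50, edgeR gave an adjusted p = 0.0553 at a log2 fold change of 4.85. It was also lost without control replicate 1 (edgeR adjusted p = 0.0729) and without control replicate 2 (0.0550), and with library totals as the scaling (log2 fold change 1.70, edgeR adjusted p = 0.0965). Its log2 fold change was above 0 in each of the 17 alternatives.

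The MiSeq experiment did not show the same signal at position 4927. Counts there were 15050 and 10550 in the controls and 0 and 50 after oxidation, and the log2 fold change was −3.97 (SE 2.04, adjusted p = 0.172, edgeR's quasi-likelihood test). The share of the stretch was 0.370% and 0.366% in the MiSeq controls. After oxidation it was 0% and 0.316%, and the upper ends of the exact 95% intervals, 0.939% and 1.75%, lie below the 4.92% that is the lowest lower bound in the oxidized NextSeq libraries. The difference between the effects in the 2 experiments was a log2 value of 8.91 (SE 2.44, adjusted p = 0.0582, edgeR with an interaction term over 6732 positions). That fit called 28 positions of the stretch higher and 11 lower, where 3.65% and 4.55% of all positions were called.

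Position 4737, a C, held the most ends in all 3 oxidized NextSeq libraries. It had 91300, 102550 and 16900 counts in the controls and 3950, 5300 and 5500 after oxidation. These are 1.70%, 1.75% and 0.382% of the stretch in the controls and 16.3%, 21.3% and 20.3% after oxidation, and the exact 95% intervals of the oxidized shares began at 13.2% in replicate 1 and ended at 25.2% in replicate 2. It stood at 0.668 to 2.09 times its flanking positions in the controls and at 43.9, 57.3 and 46.8 times after oxidation. The 2 positions before it did not keep pace. Position 4735 had 139406, 155600 and 17400 counts in the controls and 300 to 450 after oxidation. Position 4736 had 141400, 158500 and 21800 counts in the controls and 150 to 250 after oxidation.

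The fit did not call position 4737. Its log2 fold change was 2.43 (SE 0.943, adjusted p = 0.105, edgeR's quasi-likelihood test). Without control replicate 3, which had 16900 counts there, the log2 fold change was 1.89 with an adjusted p = 0.0194 in edgeR. With library totals as the scaling its sign turned (−1.28, edgeR adjusted p = 0.174). MiSeq counts at position 4737 were 4250 and 3800 counts in the controls and 50 and 0 after oxidation, 0.105% and 0.132% of the stretch in the controls and 0.256% and 0% after oxidation. The upper ends of the exact 95% intervals after oxidation were 1.42% and 1.16%, below 13.2%, the lowest lower bound in the oxidized NextSeq libraries. Here too, the shares have unlike bases, because the stretch took a larger part of all counts in the oxidized MiSeq libraries.

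Position 4672, a U near the start of the stretch, had a higher share in the oxidized libraries of both experiments than in their controls. It had 13718, 14269 and 91627 counts in the NextSeq controls and 827, 971 and 1227 after oxidation, and took 0.256%, 0.244% and 2.07% of the stretch in the controls and 3.42%, 3.91% and 4.53% after oxidation. It also took 0.379% and 0.550% in the MiSeq controls and 2.56% and 4.44% after oxidation, where it had 500 and 701 counts. The closest pair was control replicate 3 and oxidized replicate 1 of the NextSeq experiment. The fit called neither (log2 fold change 1.56, SE 0.759, adjusted p = 0.182 in NextSeq, and 0.21, SE 0.384, adjusted p = 0.657 in MiSeq, edgeR's quasi-likelihood test). NextSeq control replicate 3, the library that stood apart, had its highest count of the stretch at this position.

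Position 5006, an A, had 1600, 1900 and 26300 counts in the NextSeq controls and 550, 700 and 950 after oxidation. Its share of the stretch was 0.0298%, 0.0325% and 0.594% in the controls and 2.28%, 2.82% and 3.51% after oxidation. The MiSeq libraries showed 750 and 900 counts in the controls and 100 and 300 after oxidation. The log2 fold changes were 3.24 in NextSeq (SE 1.07, adjusted p = 0.0712) and 2.89 in MiSeq (SE 0.803, adjusted p = 0.0415) by edgeR's quasi-likelihood test, so that the MiSeq value passed the threshold and the NextSeq value did not. Neither side was stable: by edgeR or DESeq2 the MiSeq call was lost in 4 of 14 alternatives, and NextSeq gained a call in 3 of 17. The test of their difference gave a log2 value of 0.06 (SE 1.41), not past the threshold.

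**Figure D4:**
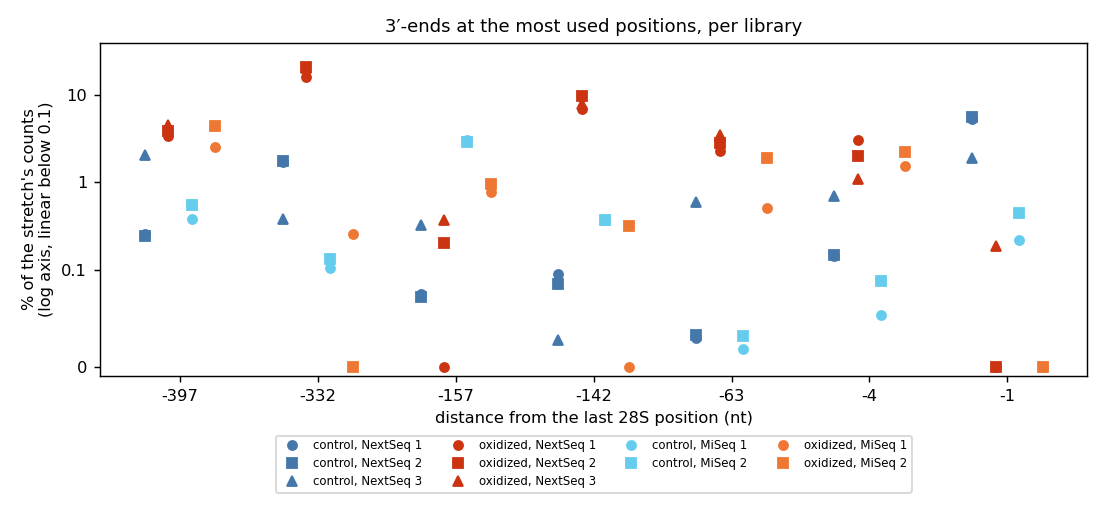
The y axis gives the percent of the stretch's counts (log axis, linear below 0.1%) at 7 positions, placed by their distance from the last 28S position in nt (x axis), with 1 point per library. At −332 and −142 the 3 oxidized NextSeq libraries stand above the other groups, at −397 and −4 both oxidized groups stand above their controls, and at −1 the controls stand above the oxidized libraries.

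With a threshold of 10 times the mean of the flanking positions, reached in every library of a group, 4 positions of the stretch passed in the oxidized NextSeq libraries: 4672, 4737, 4927 and 5006. Over all 6833 positions outside known sites, 27 passed, which is 0.395%, and 98 of the 106 known sites did. No position of the stretch passed in the NextSeq controls, where 1 of the 6833 did (0.0146%). In the oxidized MiSeq libraries 5 positions passed (4699, 4800, 4875, 4976 and 4989) against a background of 0.673%, and each had 50 to 351 counts per library. Where the flanks are nearly all at 0, 1 step of 50 is enough to pass, so passing at this depth need not mark a peak. In the MiSeq controls position 5068 passed, against a background of 0.0439%. No position passed in the oxidized libraries of both experiments. Known sites of the upstream 1-copy part give the scale: their mean over the flanks was 2.99 to 832 times in the oxidized NextSeq libraries, with a median of 177, and their log2 fold changes were 5.16 to 12.8. Both low ends, 2.99 times and 5.16, are those of position 4497 alone, and the next lowest log2 fold change is 8.69 at position 4617. The paper did not detect position 4497, and proposes that the known site just 3′ of it may be fully methylated. The log2 fold change of position 4927, 5.44, was thus below those of 10 of the 11 upstream known sites. The other 409 positions of the stretch lay below 5.16. The strict and the relaxed cutoff that the paper set on the log2 fold change, in its own DESeq2 fit, are both higher than the value of position 4927.

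Across the stretch the fit called few positions higher in the oxidized libraries. In the NextSeq experiment edgeR called 1 of 410 positions higher, where 3.02% of all 6718 positions tested were called higher. All positions tested include the known sites, of which the stretch holds none, so the background of higher calls is not a like one. How many of those calls are known sites was not counted. It called 105 positions, or 25.6%, lower, against 18.8% of all positions. The median log2 fold change was −2.35 in the stretch and −2.34 over all positions outside known sites. These medians depend on the scaling: the median over all positions was −2.25 with TMM factors, −6.26 with library totals and −1.97 with totals outside known sites, and the calls in the stretch were then 0 higher and 259 lower, and 1 higher and 3 lower. On counts in steps of 50 edgeR called 0 higher and 1 lower (2 and 137 at an unadjusted p under 0.05, and DESeq2 on the deposited counts called 6 and 154). With oxidized replicates 2 and 3 as 1 sample it called 0 in either direction (4 higher and 146 lower at an unadjusted p under 0.05). The count moved with each control left out, to 0 higher and 4 lower without control replicate 1, 0 and 9 without control replicate 2, and 13 and 135 without control replicate 3.

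In the MiSeq experiment edgeR called 12 positions higher, against 10.6% of all 6661 positions, and 284 lower, or 69.3%, against 51.6%. Here too, the background of higher calls includes the known sites. The median log2 fold change was −11.2 in the stretch and −5.22 over positions outside known sites. Many fitted values rest on oxidized counts of 0 and depend on the prior count. On counts in steps of 50 the medians were −5.82 and −3.75, and edgeR called 12 higher and 226 lower. DESeq2, other normalizations and other filters gave 11 to 23 higher and 252 to 295 lower. The counts fell to 0 higher and 6 lower without control replicate 1 and to 0 higher and 7 lower without control replicate 2, which left 1 control assumed to vary like the oxidized libraries. With both oxidized libraries as 1 sample, assumed to vary like the controls, edgeR called 27 higher and 323 lower, and position 4927 was then called lower (log2 fold change −3.88, edgeR adjusted p = 0.00023).

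Positions were also compared by their shares, which are scaled by the counts outside known sites. As a share of counts outside known sites, 18 positions were higher in every oxidized NextSeq library than in every control and 185 were lower, where 6.07% and 42.6% of all positions outside known sites did so. For MiSeq, 37 were higher and 326 lower, against 19.4% and 60.8%. The higher positions were 4.39% of the stretch in NextSeq and 9.02% in MiSeq, and the difference from the background was not tested.

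The 3′-end of 28S was the most used end of the stretch in 2 of the NextSeq controls. Position 5068, the U before the last nucleotide, had 286800, 329200 and 84850 counts in the NextSeq controls and 0, 0 and 50 after oxidation. It took 5.35%, 5.62% and 1.92% of the stretch in the controls. The MiSeq libraries had 8850 and 12900 counts in the controls (0.218% and 0.448% of the stretch) and 0 in both oxidized libraries, where the limit was 0.767% and 0.949%. The last position, 5069, a C, had far fewer ends: 5450, 5700 and 2000 in the NextSeq controls and 100, 150 and 100 after oxidation. Position 5068 stood at 74.1, 70.9 and 6.43 times its flanks in the NextSeq controls and 13.5 and 20.4 times in the MiSeq controls. The fit gave a log2 fold change of −7.51 for position 5068 (SE 2.41, adjusted p = 0.0651) and of 1.09 for position 5069 (SE 0.903, adjusted p = 0.423) in NextSeq by edgeR's quasi-likelihood test, neither past the threshold. In the MiSeq fit edgeR called both lower, at −15.5 for position 5068 (SE 1.27, adjusted p = 0.0069) and −10.2 for position 5069 (SE 1.92, adjusted p = 0.0279), values that rest on oxidized counts of 0 and depend on the prior count. The MiSeq controls had 313 ± 158 CPM (SD, n = 2) at position 5068 and 8.03 ± 4.93 CPM at position 5069, and a count of 0 allowed up to 95.6 and 111 CPM in the oxidized libraries. Of 14 alternatives, 3 lost the call at 5068 and 5 that at 5069, among them leaving out either control.

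Just inside the end, the oxidized libraries held ends at other positions. Position 5065, a U, took 0.144%, 0.149% and 0.697% of the stretch in the NextSeq controls and 3.10%, 2.01% and 1.11% after oxidation. The same position took 0.0529% and 0.0886% in the MiSeq controls and 1.53% and 2.21% after oxidation. Position 5064, also a U, took 0.206%, 0.231% and 0.723% in the NextSeq controls and 1.86%, 0.402% and 1.66% after oxidation, where replicate 2 overlapped the controls. Position 5063, a G, had 300 and 400 counts in the oxidized MiSeq libraries (1.53% and 2.53%) but 0 in each of the 3 oxidized NextSeq libraries. The last 2 positions together took 5.45%, 5.72% and 1.96% in the NextSeq controls and 0.414%, 0.603% and 0.554% after oxidation (exact permutation p = 0.1, the smallest allowed; the length of 2 positions was chosen after seeing the data). Over the last 10 positions, ends took 6.11%, 6.47% and 5.06% of the stretch in the NextSeq controls and 5.79%, 3.02% and 3.88% after oxidation, which overlapped (exact permutation p = 0.2). In the MiSeq experiment they took 0.391% and 0.690% in the controls and 3.32% and 6.96% after oxidation (exact permutation p = 0.333, the smallest allowed). The mean terminal share was thus lower after oxidation in NextSeq and higher in MiSeq, neither past a threshold, and the MiSeq direction turned when only the last 2 positions were taken (0.341% in the controls on average, 0% after oxidation).

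**Figure D5:**
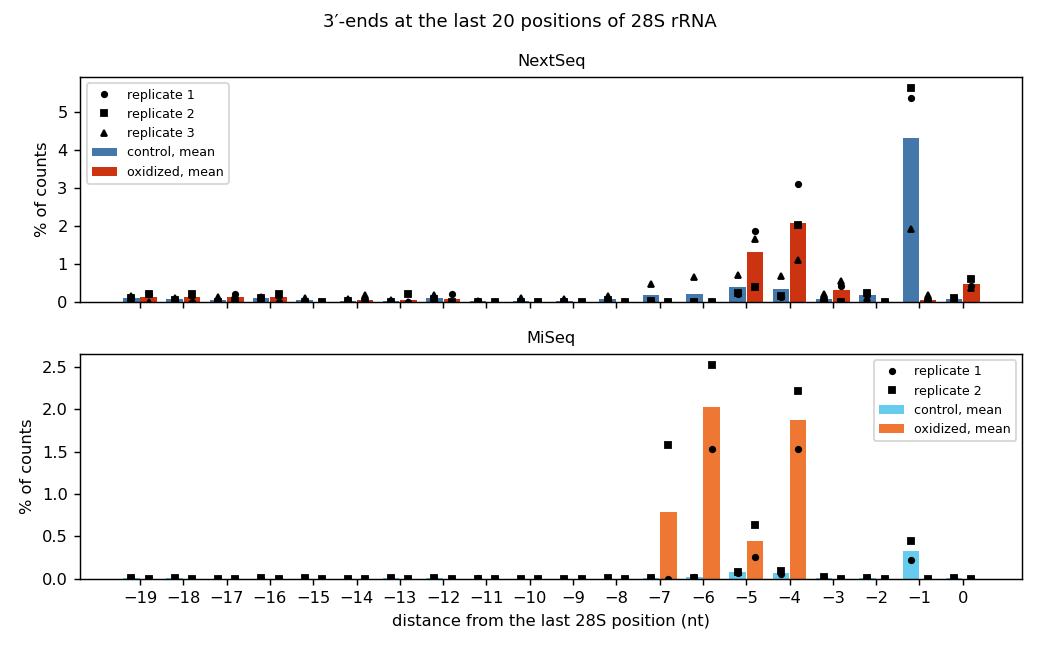
The y axis gives the percent of the stretch's counts at each of the last 20 positions (x axis, distance from the last 28S position in nt), with bars for group means and points for libraries. The controls peak at −1 and the oxidized libraries at −4 and, for MiSeq, −6.

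Of the 5 positions with the largest log2 fold changes in the MiSeq fit, 3 lay near the start of the stretch. Position 4699, an A, had 51 and 101 counts in the MiSeq controls and 351 and 251 after oxidation, which is 0.00126% and 0.00351% of the stretch against 1.79% and 1.59%. Its log2 fold change was 6.80 (SE 0.745, adjusted p = 0.0069, edgeR's quasi-likelihood test). The NextSeq libraries had 255, 51 and 5346 counts there in the controls and 1, 1 and 0 after oxidation. Position 4684, a U, had 1102 and 303 counts in the MiSeq controls and 450 and 350 after oxidation, and in NextSeq 3590, 4946 and 57241 against 0, 0 and 2. Position 4693, a G, had 214 and 358 counts in the MiSeq controls and 250 and 100 after oxidation. The other 2 with the largest values were position 4976, an A, with 300 and 100 counts in the controls and 150 in both oxidized libraries, and position 5063. Each oxidized MiSeq count here is 2 to 9 steps of 50.

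Position 4938, a C that appears in the supplementary list from the study's MiSeq pilot, had fewer counts after oxidation in both experiments. It had 22000, 20700 and 8700 counts in the NextSeq controls and 0 in all 3 oxidized libraries. Its control shares, 0.410%, 0.354% and 0.197% of the stretch, were below the 0.554% that a count of 0 allowed at best. The fit called it lower (log2 fold change −16.3, adjusted p = 0.0359, edgeR's quasi-likelihood test), a value that rests on oxidized counts of 0 and depends on the prior count. In the MiSeq experiment it had 4450 and 2450 counts in the controls and 50 and 100 after oxidation (log2 fold change −0.53, SE 0.568, adjusted p = 0.464, edgeR's quasi-likelihood test). As a share of the MiSeq stretch it went up, from 0.110% and 0.0851% in the controls to 0.256% and 0.633% after oxidation. The oxidized values are 1 and 2 steps of 50.

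The nucleotide at the end differed between groups. G ends made up 39.3%, 39.4% and 29.1% of the stretch in the NextSeq controls and 17.2%, 13.7% and 12.4% after oxidation (exact permutation p = 0.1, the smallest allowed, and 0.2 when adjusted over the 4 bases compared). They made up 37.0% and 36.8% in the MiSeq controls and 24.3% and 21.2% after oxidation. The stretch itself is 33.4% G, which lies below 4 of the 5 controls and above every oxidized library. C ends made up 42.3%, 42.1% and 27.6% in the NextSeq controls and 51.8%, 57.2% and 55.3% after oxidation. Position 4737 carried much of this: without it C ends were 41.3%, 41.1% and 27.3% in the controls and 42.4%, 45.6% and 43.9% after oxidation. MiSeq C ends overlapped, at 38.5% and 37.1% against 35.8% and 37.3%. The shares of A and U ends together were 18.3%, 18.5% and 43.3% in the NextSeq controls, which put control replicate 3 above the oxidized libraries at 29.1% to 32.3%. The MiSeq shares were 24.5% and 26.1% in the controls and 39.9% and 41.5% after oxidation.

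The oxidized and control profiles were partly alike. Across positions of the stretch, Spearman's rho between the mean oxidized and the mean control profile was 0.504 in NextSeq with no shift, 0.511 with the control read 1 base downstream, and 0.317 to 0.461 at the other shifts of up to 5 bases. In MiSeq it was 0.259 with no shift and 0.116 to 0.226 at the others. These are descriptions over 400 positions of the same RNA, which share libraries and sequence context. Between libraries over all 410 positions, rho was 0.992 between NextSeq control replicates 1 and 2 and 0.422 and 0.435 between them and replicate 3.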

How the data were processed

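The deposited files hold, per library, the count of fragment 3′-ends at each base position of 18S and 28S rRNA, made by the authors without normalization. The submitters' processing notes name cutadapt 1.12, TopHat2 2.1.1, SAMtools 0.1.19 and DESeq2, with hg19 as the build. PCR duplicates were collapsed by the authors with random bases in the reads. What a step of 50 counts stands for is not given in the sources used here. Tables that hold only the authors' own comparisons (fold changes, p-values and base calls) were not used.

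The 410 positions were taken from all 10 count files, and their bases from the hg19 contig, on which 64 of the 66 known 28S sites matched the listed base. The 106 known sites came from the study's supplement. The position list, the named positions and the tests were chosen with earlier results of these data known. Named were position 4927, position 4938, the last position, the 5 positions of highest mean CPM in each group and the 5 with the largest log2 fold change in each experiment. The threshold of 10 times the flanks was chosen after seeing the data.

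Oxidized and control libraries were compared within each experiment with edgeR 4.0.16 (R 4.3.3) by its quasi-likelihood test, with TMM factors and a minimum of 1 count per position in the experiment, with p-values adjusted by Benjamini-Hochberg over all 18S and 28S positions. A position was called at an adjusted p under 0.05. The difference between experiments was an interaction term over all 10 libraries, added after seeing the data. The script was tested on simulated counts without steps of 50 and with less spread than these data (common dispersion 1.46 in NextSeq and 0.530 in MiSeq). That test covers the code and not the error rates here. Shares were compared by two-sided exact permutation tests over libraries. Alternatives were DESeq2 1.42.0, other normalizations and filters, counts in steps of 50, a covariate for passage, a block for replicate number, each library left out, other denominators and other lengths of the terminal part.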

Additional observations from a re-analysis of the deposited data

Results flagged for a closer look

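At 5 of the named positions the effect of oxidation differed between the experiments by edgeR's test of the interaction. NextSeq and MiSeq differ in passage, amount of starting RNA, sequencing run, depth and the places of control ends, so what sets them apart cannot be told apart here. Position 4684 gave a difference of −12.5 on the log2 scale (adjusted p = 0.0178, edgeR), with log2 fold changes of −8.03 in NextSeq and 4.19 in MiSeq. Position 4699 gave −11.4 (adjusted p = 0.0322, edgeR), from −4.38 and 6.80. Position 5063 gave −18.5 (adjusted p = 0.0460, edgeR), from −14.8 and 4.15, and NextSeq control replicate 3 held 28655 of its control counts against 402 and 353 in the other two. Position 4938 gave −15.6 (adjusted p = 0.0227, edgeR), from −16.3 and −0.53. Position 4862, a G, gave 17.7 (adjusted p = 0.0142, edgeR), from 3.01 and −14.4. Its counts were 300, 400 and 3900 in the NextSeq controls and 50, 100 and 150 after oxidation, and 6400 and 4200 in the MiSeq controls and 0 in both oxidized libraries.

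Each of these differences rests on an oxidized group with at most 2 counts in a library, so its size depends on the prior count and is no measure of a fold. Under the 21 alternatives the adjusted p-values from edgeR or DESeq2 reached 0.212 at position 4684, 0.305 at 4699, 0.212 at 4862, and 0.232 at both 4938 and 5063, and the direction held in each. The calls were lost in 3, 9, 4, 6 and 15 of the 21 alternatives at positions 4684, 4699, 4862, 4938 and 5063.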

How the results depend on the processing

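The NextSeq counts of called positions moved most with scaling and replicates. They were 6 higher with DESeq2, 5 higher with the passage as a covariate, 0 higher and 259 lower with library totals, 3 lower with totals outside known sites, 0 higher and 1 lower on steps of 50, and 0 in both directions with oxidized replicates 2 and 3 as 1 sample (edgeR; 4 and 146 at an unadjusted p under 0.05). With 1 library left out they were 0 to 13 higher and 4 to 135 lower. The MiSeq count was 23 higher with totals outside known sites, 27 higher with oxidized replicates 1 and 2 as 1 sample, and 0 to 28 higher and 6 to 329 lower with 1 library left out. The cause was not tested. With the replicate block the NextSeq count was 1 higher and 7 lower, and the MiSeq count 0 and 0 (edgeR; 7 and 148 at an unadjusted p under 0.05). NextSeq libraries that share a number had correlations of their deviations of 0.028, −0.021 and 0.0092, within the range of those with different numbers (−0.030 to 0.029). This does not exclude a pairing, and NextSeq libraries of the same number share their passage. With 2 MiSeq libraries per group the deviations are mirror images, so their value (−0.0092) cannot show a pairing.

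With library totals the log2 fold changes reversed to −2.77, −1.28, −1.54, −1.43, −1.41, −2.64, −1.23 and −2.67 at positions 4672, 4737, 4784, 4852, 4862, 4976, 5006 and 5069 in NextSeq and to −0.057 at 4672 in MiSeq. Position 4852 reversed to −3.66 with the replicate block and ranged from −12.0 to 3.16 with 1 library left out, position 4912 from −1.48 to 0.068, and position 4672 in MiSeq from −0.089 to 0.50 and to −0.043 on steps of 50. Position 4938 in MiSeq reversed to 0.51 with totals outside known sites. Of 601 values of named positions under alternatives, 461 kept direction and side of the threshold, 97 lost the call and 28 gained one. The shares of the stretch outside known sites kept their direction under every alternative listed. With 1 library left out the differences in share were −3.47 to −2.71 percentage points in NextSeq and −6.53 to −6.28 in MiSeq, and for the last 10 positions −2.43 to −1.04 and 2.78 to 6.42. The last 2 positions reversed in MiSeq, at −0.341. The counts of positions whose effect differed between the experiments were 0 to 116 higher and 0 to 30 lower. Depth limits the oxidized libraries: each held 316 to 541 steps of 50 in the stretch.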

Other observations

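The controls of the 2 experiments held most ends at different places in the stretch, and the cause was not tested. The MiSeq controls had their 5 highest positions at 4907, 4908, 4909, 4911 and 4912, led by 4912 with 3.05% and 2.90% of the stretch and 4909 with 2.66% and 2.49%. At the same 5 positions NextSeq control replicates 1 and 2 had 0.00512% to 0.101%, and replicate 3 had 0.266% to 0.439%. The order turned at positions 4735, 4736 and 4770, where NextSeq control replicates 1 and 2 had 2.60% to 2.78% each and the MiSeq controls 0.0898% to 0.294%. NextSeq control replicate 3 had 0.393% to 0.493% there, nearer to the MiSeq controls.

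The 12 positions that edgeR called higher in the oxidized MiSeq libraries were 4684, 4693, 4699, 4728, 4949, 4976, 5006, 5018, 5034, 5035, 5063 and 5065, of which 5 are A, 4 are U, 2 are G and 1 is C. They were named after their values were seen. Of these, 5 lay above 0 in the NextSeq fit as well (4976, 5006, 5034, 5035 and 5065), and edgeR called none of the 5 higher there.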
